A study of Mus musculus with 6 samples.

Results

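The 9 Hedgehog pathway genes studied here, the receptors, co-receptors and GLI factors Ptch1, Smo, Gli1, Gli2, Gli3, Sufu, Hhip, Boc and Gas1, were read from a gene count table of mouse primary osteoblasts. They were chosen by name, and all 9 matched an Ensembl ID among the 51912 in the table. The table holds 3 Mark3-KO libraries and 3 WT libraries. All cells were calvarial osteoblasts, the bone-forming cells of the skull cap, from C57BL/6J pups aged 1 d with both Mark3 alleles flanked by loxP sites (Mark3 flox/flox). The Mark3-KO cultures (genotype Mark3-/-) received an adenovirus carrying CRE for 24 h, and the WT cultures (genotype wild-type) an adenovirus carrying GFP for 24 h. Genotype and viral cargo therefore cannot be told apart, and the WT cells carry the same floxed alleles. The sources used here do not say whether the replicates were grown as separate cultures or drawn from separate pups. The p-values therefore cover only library-to-library spread, which can be technical.

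Hedgehog ligands bind Ptch1, which otherwise holds the membrane protein Smo inactive. Boc and Gas1 are co-receptors that help Ptch1 take up ligand, and Hhip is a surface protein that binds ligand and withholds it from Ptch1. Active Smo releases the zinc finger factors Gli2 and Gli3 from Sufu, and Gli1, Ptch1 and Hhip are themselves target genes, so their RNA is commonly read as a measure of pathway output. Gli2 acts mainly as an activator and Gli3 mainly as a repressor. In bone, the pathway is known for driving osteoblast formation in endochondral bone and for patterning the skull vault and its sutures.

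The libraries held 56925883 to 71445243 counts. Mark3 itself had 3506, 3120 and 2712 counts in the Mark3-KO libraries, against 6575, 6475 and 7887 in the WT libraries, which left 41.4% of the WT level (log2 fold change -1.27, edgeR adjusted p 0.0153), so the targeted gene followed the labels. The edgeR adjusted p of Mark3 was 0.128 without WT replicate 2, 0.0798 and 0.0681 without Mark3-KO replicates 2 and 3, and 0.125 with the 4 libraries nearest each other, at log2 fold changes of -1.35 to -1.22. The libraries also stood apart by transcript GC content. Among genes in the top GC decile, the median log2 ratio to each gene's mean was -0.19, -0.69 and -0.98 in Mark3-KO replicates 1, 2 and 3, and 1.12, 0.69 and 0.11 in WT replicates 1, 2 and 3. WT replicate 3 and Mark3-KO replicate 1 were thus the closest pair across the groups. In their counts these 2 libraries also differed less (chi-square per degree of freedom 68.2) than any 2 libraries of the same group (78.3 to 240). Fold changes are therefore also given after a GC correction, in which a smooth curve of GC content was removed from each library. Levels in CPM, their order and the marker sums are without it. Over all 19017 tested genes, 41 passed at an adjusted p below 0.05 (9 higher and 32 lower in Mark3-KO, 0.216% of those tested), with a median log2 fold change of 0.02. Without WT replicate 3 the count was 6460 and without Mark3-KO replicate 1 it was 6265, while leaving out another single library gave 0 to 14 (0 without WT replicate 2, 3 and 5 without Mark3-KO replicate 2 and 3, 14 without WT replicate 1). Scaling by library size alone moved that median to 0.13 and gave 2190 higher and 2320 lower genes, so fold changes are relative to the TMM scale.

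Because libraries differed by transcript GC content, coding stretches of 5 of the genes are shown first, 5′ to 3′, with G and C in capitals. Each is the 90-base in-frame stretch whose GC content lies nearest to that of the gene's longest transcript, taken from the GENCODE M21 annotation of GRCm38. Gli1 and Smo had among the highest GC content of the 9 genes and Hhip the lowest, while Gas1 was nearly as rich in GC as Gli1 and lay on the other side of 0 in fold change.
Gli1: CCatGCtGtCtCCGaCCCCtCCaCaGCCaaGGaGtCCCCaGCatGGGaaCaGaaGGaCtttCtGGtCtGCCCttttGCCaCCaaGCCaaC
Smo: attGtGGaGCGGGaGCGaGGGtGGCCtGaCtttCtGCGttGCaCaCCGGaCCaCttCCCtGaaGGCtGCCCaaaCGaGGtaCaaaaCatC
Gas1: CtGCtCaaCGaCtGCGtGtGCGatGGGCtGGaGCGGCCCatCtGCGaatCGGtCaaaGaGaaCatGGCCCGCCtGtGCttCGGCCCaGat
Gli3: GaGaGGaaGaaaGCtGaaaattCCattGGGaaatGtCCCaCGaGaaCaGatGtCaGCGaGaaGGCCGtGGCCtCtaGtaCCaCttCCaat
Hhip: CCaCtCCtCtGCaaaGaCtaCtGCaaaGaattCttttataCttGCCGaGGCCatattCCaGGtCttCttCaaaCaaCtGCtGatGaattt
The longest transcripts of these genes had 59% (Gli1), 57.8% (Smo), 58.4% (Gas1), 48.4% (Gli3) and 41.2% (Hhip) GC. The coding sequence of Gas1, a gene of 1 exon, reached 72.4% GC and held no in-frame stretch nearer to its transcript's value than the 62.2% of the stretch shown. The stretches start at coding base 46 of Gli1, 478 of Smo, 640 of Gas1, 34 of Gli3 and 412 of Hhip. Gli1 lies on chromosome 10 (127329882 to 127341974, minus strand), Smo on chromosome 6 (29735503 to 29761365, plus strand), Gas1 on chromosome 13 (60174405 to 60177365, minus strand), Gli3 on chromosome 13 (15463235 to 15730026, plus strand) and Hhip on chromosome 8 (79965851 to 80058006, minus strand).

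None of the 9 genes passed the threshold over all genes tested: 0 had an edgeR adjusted p below 0.05, where 0.216% of all tested genes did (0.0473% higher and 0.168% lower). Below 0.1 there were 6 (1 higher and 5 lower), against 43.7% of all tested genes (19.7% higher and 24.0% lower). An adjusted p of 0.0506 was shared by genes that differ in unadjusted edgeR p, such as the kinase gene Gsk3b (2.85e-04) and Gli2 (0.00794). Equal adjusted values below therefore do not mean equal unadjusted ones. At an unadjusted p below 0.05 there were 7 (5 lower and 2 higher in Mark3-KO), against 45.7% of all tested genes (24.8% lower and 20.8% higher). The DESeq2 Wald test called 6 of the 9 (1 higher and 5 lower), against 36.4% of all genes (14.6% higher and 21.7% lower). Limma-voom called 0 of the 9, and 27 of all 19017 tested genes. In CPM, Mark3-KO and WT libraries were fully apart for 6 of the 9 genes (5 lower and 1 higher in Mark3-KO), as for 53.3% of all genes (27.5% lower and 25.8% higher). After the GC correction 0 passed, against 0.379% of all genes, 3 had an unadjusted p below 0.05 (Smo, Sufu and Gas1, all higher, against 26.3% of all genes and 12.5% higher), and 2 did not overlap (Gli2 and Gas1, both higher, against 33.2% of all genes and 16.2% higher). The fitted fold change was below 0 for 5 of the 9, as for 48.9% of all genes. The median log2 fold change of the 9 was -0.51, and 0.24 after the GC correction. Without WT replicate 3, or without Mark3-KO replicate 1, 5 of the 9 passed (1 higher and 4 lower). Over all tested genes 6460 of 19615 and 6265 of 19528 passed then, in the same order. Without any other single library 0 of the 9 passed, where 0 to 14 of all tested genes did. All counts below are scaled to CPM (counts per 1e6 on TMM-scaled library sizes), and in bulk cultures fewer cells of a type and less RNA per cell cannot be told apart.

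**Figure D1:**
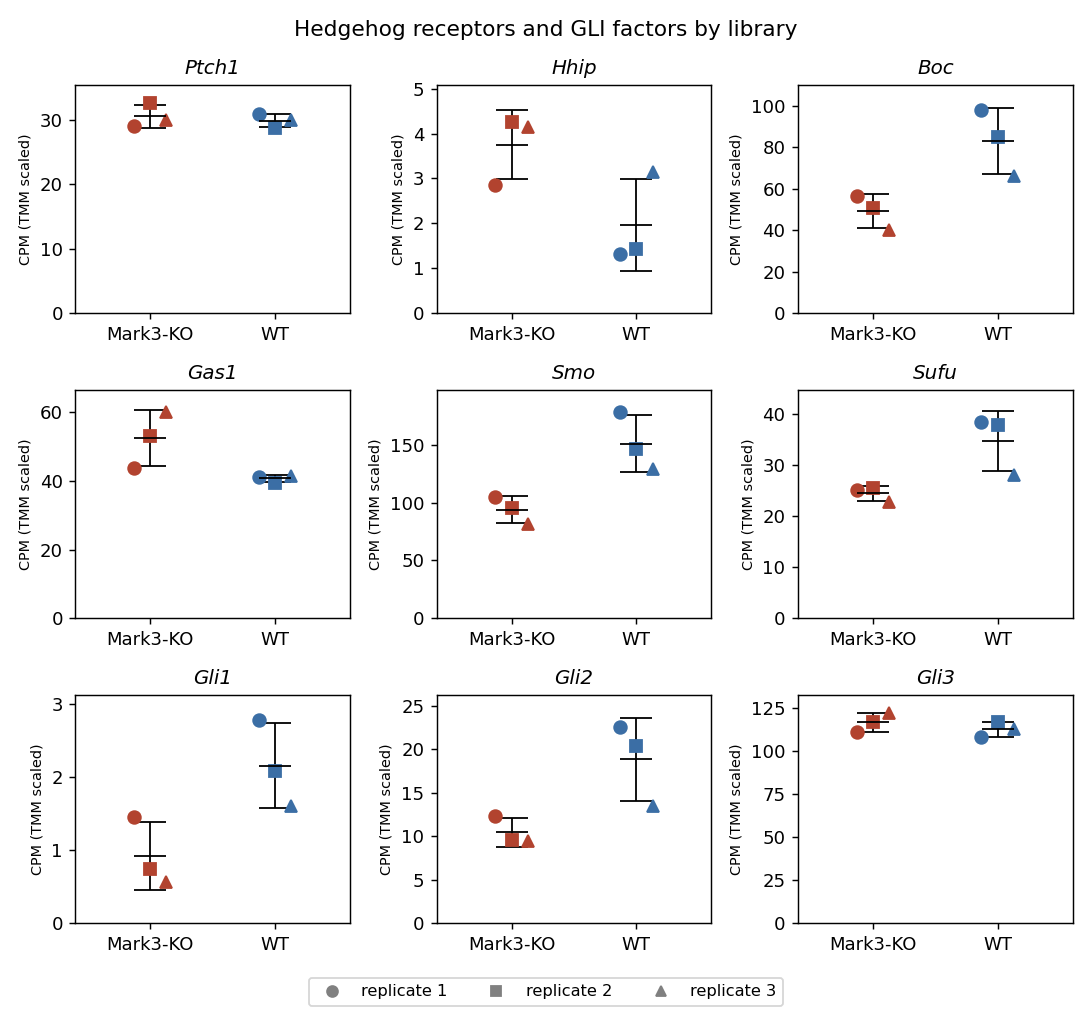
CPM (vertical axes, linear and starting at 0) of the 9 Hedgehog genes in each library, with Mark3-KO left of WT; symbols mark the replicate number, and horizontal bars give the mean and SD of 3 libraries. Boc, Smo, Sufu, Gli1 and Gli2 lay lower in every Mark3-KO library than in any WT library, Gas1 lay higher, and Ptch1, Gli3 and Hhip overlapped; after the GC correction the fold changes of Boc, Smo, Sufu and Gli2 were above 0.

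The receptor Ptch1 (chromosome 13, 63508328 to 63573598), both the brake on Smo and a target gene of the pathway, differed little between libraries. It measured 29.1, 32.6 and 29.9 CPM in the Mark3-KO libraries, against 30.9, 28.8 and 29.9 CPM in the WT libraries. The ranges overlapped, with a log2 fold change of 0.03 (SE 0.10, edgeR adjusted p 0.835). After the GC correction it was -0.06 (SE 0.08, edgeR adjusted p 0.66). The GC content used for Ptch1, 47.8%, is that of its longest transcript, an entry annotated for nonsense-mediated decay, while the coding sequence of its longest protein-coding transcript had 54.7%.

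Hhip, the ligand-binding antagonist and another target gene, was scarce. It measured 2.86, 4.25 and 4.15 CPM in the Mark3-KO libraries (211, 253 and 255 counts), against 1.32, 1.43 and 3.15 CPM in the WT libraries (77, 79 and 211 counts). WT replicate 3 lay within the Mark3-KO range, and the other 2 WT libraries lay below it. Hhip had a log2 fold change of 0.93 (SE 0.38, edgeR adjusted p 0.102), 1.43 without WT replicate 3 (edgeR adjusted p 0.0258), and 0.47 (SE 0.29, edgeR adjusted p 0.346) after the GC correction.

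The co-receptors Boc and Gas1 lay on opposite sides. Boc (chromosome 16, 44485049 to 44558897), a member of the immunoglobulin superfamily, measured 56.7, 50.8 and 40.3 CPM in the Mark3-KO libraries, against 97.8, 85.1 and 66.1 CPM in the WT libraries. The groups did not overlap, with a log2 fold change of -0.75 (SE 0.19, edgeR adjusted p 0.0506), yet after the GC correction the groups overlapped and the value was 0.11 (SE 0.07, edgeR adjusted p 0.376). Gas1, a membrane-anchored co-receptor, measured 43.9, 53.1 and 60.2 CPM in the Mark3-KO libraries, against 41.3, 39.5 and 41.4 CPM in the WT libraries. Every Mark3-KO library was above every WT library, and Mark3-KO replicate 1 came closest to WT. The log2 fold change of Gas1 was 0.36 (SE 0.13, edgeR adjusted p 0.0831), and 1.53 (SE 0.35, edgeR adjusted p 0.0941) after the GC correction, where the groups still did not overlap. Gas1 shares 589 of its 2961 exon bases with a long noncoding RNA on the other strand, and the library kit does not mark strand, so reads of the pair cannot be told apart there.

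Smo, the signal transducer, was the most abundant of the 9 per length in WT. It measured 105, 95.1 and 81.8 CPM in the Mark3-KO libraries, against 178, 146 and 129 CPM in the WT libraries. All Mark3-KO libraries were below all WT libraries, by -0.68 on the log2 scale (SE 0.15, edgeR adjusted p 0.0506). After the GC correction it turned to 0.41 (SE 0.13, edgeR adjusted p 0.125), and the groups overlapped. Sufu (chromosome 19, 46396896 to 46488804), the cytoplasmic inhibitor that binds GLI factors, measured 25.1, 25.6 and 22.7 CPM in the Mark3-KO libraries, against 38.4, 37.8 and 28 CPM in the WT libraries. WT replicate 3 was the nearest to Mark3-KO. The log2 fold change of Sufu was -0.51 (SE 0.15, edgeR adjusted p 0.0557), and 0.35 (SE 0.13, edgeR adjusted p 0.16) after the GC correction.

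Among the GLI factors, Gli1 and Gli2 measured lower in Mark3-KO and Gli3 did not, an order that did not hold after the GC correction, where Gli2 was above 0. Gli1, an activator whose transcription depends on the pathway, had 107, 44 and 35 counts in the Mark3-KO libraries (1.45, 0.738 and 0.569 CPM), against 162, 115 and 108 counts in the WT libraries (2.78, 2.09 and 1.61 CPM). The groups did not overlap, although Mark3-KO replicate 1 came close to WT replicate 3. Its mean was 42.6% of the WT level, with a log2 fold change of -1.22 (SE 0.40, edgeR adjusted p 0.0629), and -0.05 (SE 0.20, edgeR adjusted p 0.907) after the GC correction. Gli2 (chromosome 1, 118834132 to 119053619) measured 12.3, 9.58 and 9.42 CPM in the Mark3-KO libraries, against 22.6, 20.4 and 13.5 CPM in the WT libraries. Here too WT replicate 3 was nearest to Mark3-KO, and the log2 fold change of -0.85 (SE 0.23, edgeR adjusted p 0.0506) turned to 0.24 (SE 0.10, edgeR adjusted p 0.21) after the GC correction. The groups of Gli2 still did not overlap then, with Mark3-KO on the higher side. Gli3, the main repressor form, measured 111, 117 and 122 CPM in the Mark3-KO libraries, against 108, 117 and 113 CPM in the WT libraries. Its groups overlapped, with a log2 fold change of 0.05 (SE 0.08, edgeR adjusted p 0.652), or 0.02 (SE 0.06, edgeR adjusted p 0.864) after the GC correction.

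Some of these genes share exon bases with a gene on the other strand. Gli1 shares 62 bases with Arhgap9, which had 11 to 16 counts in the Mark3-KO libraries and 16 to 32 in the WT libraries. Gli3 shares 188 bases with Gm6556, at 1.97 CPM in Mark3-KO and 1.6 CPM in WT. The partners of Gli1 (Gm47200) and Hhip (Gm27820) had 0 counts in every library.

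Set against all genes of like GC content, Gas1 and Hhip lay near the upper edge and the other 7 nearer to the middle. Tested genes were placed in bins 2 percentage points of GC wide, and the median log2 fold change ran from 0.51 in the bin of 40 to 42% to -1.28 in the bin of 58 to 60%. Gli1, at -1.22, lay close to the median of its bin, -1.28, and 54.7% of the 819 genes there were lower. For Smo and Gli2 the bin median was -0.98, and 72.5% and 60.7% of 1329 genes were lower. For Boc and Sufu the bin median was -0.66, with 41.6% and 63.9% of 1694 genes lower. Ptch1 (29.2% of 2114 genes lower) and Gli3 (50.9% of 2070 genes lower) were in bins with medians of 0.19 and 0.04. Hhip was above 91.2% of the 1286 genes in its bin, and Gas1 was above 98.8% of the 819 genes in the bin it shares with Gli1. These shares describe the libraries and carry no test.

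**Figure D2:**
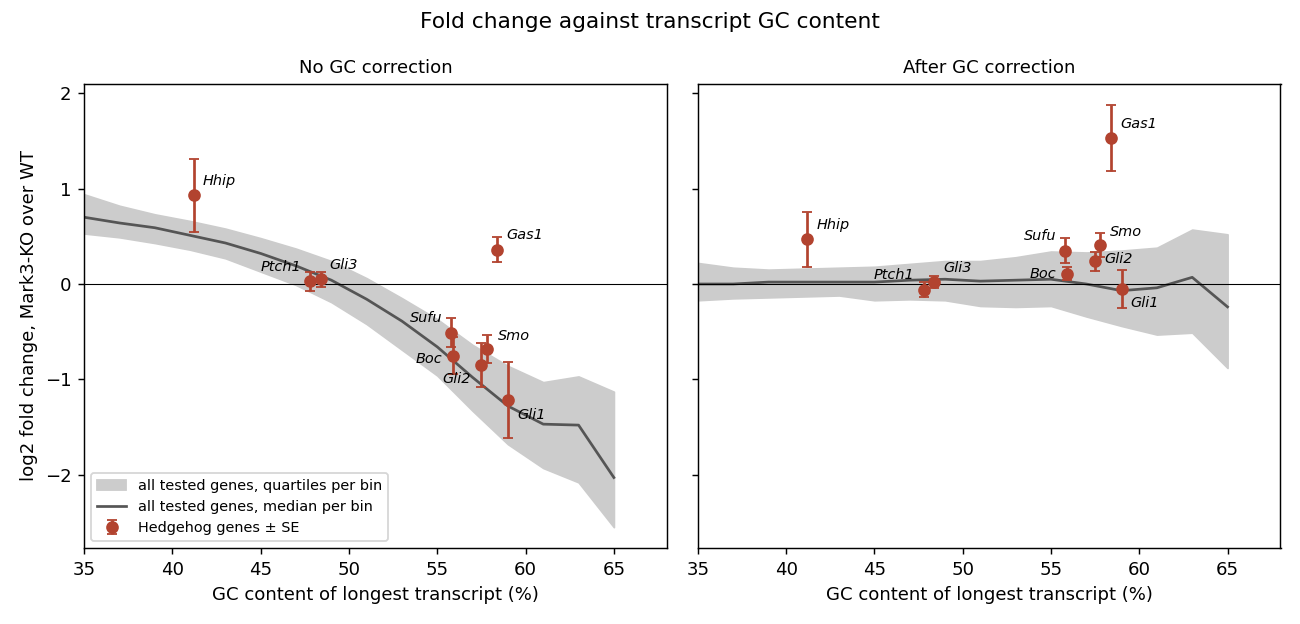
Log2 fold change of Mark3-KO over WT (vertical axis) against the GC content of the longest transcript (horizontal axis, %), before (left) and after (right) the GC correction; points are the 9 Hedgehog genes with SE, the line and band are the median and quartiles of all tested genes in bins 2 points wide. Gas1 (0.36 and 1.53) and Hhip (0.93 and 0.47) stand above the band in both panels, while Gli1 follows the line (-1.22 and -0.05). Smo lies above the drawn band narrowly in the left panel (-0.68) and also in the right (0.41). Sufu (0.35) lies narrowly above it in the right panel only.

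The order of the libraries was also compared between genes. For 5 of the 9 genes (Smo, Gli1, Gli2, Sufu and Boc), WT replicate 1 was the highest and Mark3-KO replicate 3 the lowest library, against 23.5% of all tested genes. Whether this order follows GC content was not tested. Across the 6 libraries, the pair with the most alike profile was Smo and Boc, whose log2 CPM centred on each gene's mean differed by 0.0751 (root mean square), followed by Ptch1 and Gli3 at 0.0791. Gli1 and Hhip, both target genes, were the least alike, at 1.41. These 3 pairs were at 0.197, 0.0959 and 0.456 after the GC correction, when the closest pair was Gli3 and Boc (0.0804) and the least alike Gli1 and Gas1 (0.953). Outside the 9, and among 14064 genes with a mean of at least 1 CPM, the nearest profiles by the same measure were Chfr for Ptch1 (0.0152), Nod1 for Smo (0.0269), Pepd for Gli1 (0.0341), Jade2 for Gli2 (0.0376), Ldb2 for Gli3 (0.026), Iscu for Sufu (0.0366), Noc4l for Boc (0.0304), Foxc1 for Gas1 (0.0279) and the predicted gene Gm43982 for Hhip (0.108). The second nearest were Diexf (0.0224), Letm1 (0.0333), Nenf (0.0445), Eri3 (0.0379), Dstyk (0.0268), Apcdd1 (0.041), Dhx30 (0.0313), Ier3ip1 (0.0283) and the predicted gene Gm37914 (0.15), in the same order of members.

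Levels were compared between genes as CPM per kb of exon. In Mark3-KO the order was Gas1 (17.7 ± 2.76), Smo (16.7 ± 2.1), Gli3 (12.2 ± 0.541), Boc (11.1 ± 1.87), Sufu (3.18 ± 0.206), Ptch1 (2.15 ± 0.127), Gli2 (1.52 ± 0.238), Hhip (0.413 ± 0.0851) and Gli1 (0.184 ± 0.0938), as mean ± SD of 3 libraries. Neighbours overlapped for Gas1 with Smo and for Gli3 with Boc. In WT the order was Smo (26.8 ± 4.43), Boc (18.6 ± 3.58), Gas1 (13.8 ± 0.363), Gli3 (11.7 ± 0.433), Sufu (4.52 ± 0.757), Gli2 (2.74 ± 0.692), Ptch1 (2.11 ± 0.0736), Gli1 (0.432 ± 0.118) and Hhip (0.217 ± 0.113). There, Gli2 with Ptch1 and Gli1 with Hhip overlapped. In both groups the surface genes Smo, Boc and Gas1 and the repressor Gli3 formed the upper part, and the target genes Hhip and Gli1 were the lowest.

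Gli3 made up most of the GLI mRNA. Of the summed level per kb of the 3 factors, Gli3 took 84.8, 88.8 and 89.5% in the Mark3-KO libraries, against 74.6, 78.2 and 83.8% in the WT libraries. Gli2 took 13.1, 10.1 and 9.68% in Mark3-KO, against 21.7, 19.1 and 14% in WT. Gli1 took 2.12, 1.07 and 0.804% in Mark3-KO, against 3.67, 2.69 and 2.29% in WT. Mark3-KO and WT were apart in each of the 3 shares, and the mean difference was -1.55 percentage points for Gli1, -7.29 for Gli2 and 8.84 for Gli3. An exact two-sided permutation test over the 6 libraries gave p = 0.1 for each, the smallest that 3 against 3 allows. The 3 shares of a library add up to the whole, so these are not separate results. After the GC correction the Gli1 share was 1.91 ± 0.51% in Mark3-KO and 2 ± 0.194% in WT (exact permutation p = 0.8, SD, n = 3 each). The differences of Gli2 (1.85) and Gli3 (-1.75) changed sign, with an exact permutation p of 0.1 for each in the opposite direction.

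**Figure D3:**
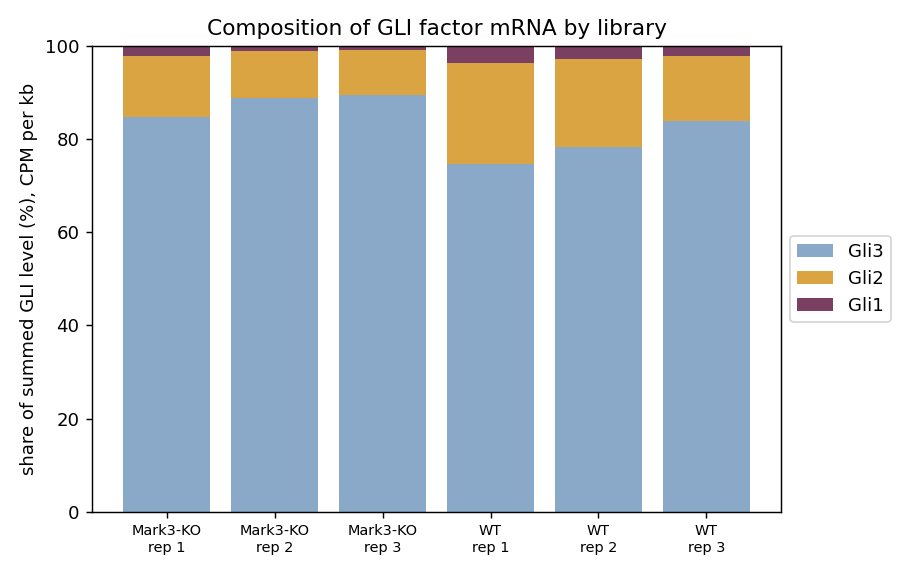
Share of the summed GLI level (vertical axis, %, from CPM per kb of exon) taken by Gli3, Gli2 and Gli1 in each library, Mark3-KO left of WT. Gli3 takes 84.8 to 89.5% in Mark3-KO and 74.6 to 83.8% in WT, a difference that changed sign after the GC correction.

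The ligands themselves were close to the limit of counting. Shh had 2 counts over the Mark3-KO libraries and 0 over the WT libraries, where a floor of 3 counts over the group allows up to 0.0166 CPM. Ihh had 5 counts in Mark3-KO and 10 in WT, and Dhh had 14 and 10 in the same order. Dhh and Shh share exon bases with other genes, Dhh also with Rhebl1 on its own strand, so their counts are uncertain. None of these 3 genes entered the test, and such floors cover counting error alone.

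Genes that release the ligand were better covered. Hhat, which attaches the palmitoyl group to the ligand, measured 11.6 ± 1.18 CPM in Mark3-KO and 14.2 ± 1.29 CPM in WT (log2 fold change -0.29, edgeR adjusted p 0.159, and -0.44 after the GC correction). Disp1, which frees lipid-modified ligand from the cell, measured 35.9, 23.9 and 26.1 CPM in Mark3-KO, against 86.7, 68.8 and 31.6 CPM in WT, so its groups overlapped at WT replicate 3 (-1.12, edgeR adjusted p 0.0637, and -0.23 after the GC correction). The secreted release factors Scube1, Scube2 and Scube3 had log2 fold changes of -1.13, -0.15 and -0.96 (edgeR adjusted p 0.0506, 0.693 and 0.126). In all, 0 of 5 tested genes of this list passed, and the median was -0.96. The median was -0.16 after the GC correction, with Scube1 at -0.16, Scube2 at 0.08 and Scube3 at -0.07.

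The other receptors and co-receptors were well covered, and their differences were small. Cdon, the paralog of Boc, measured 203 ± 7.01 CPM in Mark3-KO and 174 ± 22.5 CPM in WT, without overlap (log2 fold change 0.22, edgeR adjusted p 0.176, and 0.21 after the GC correction). Lrp2, a large endocytic receptor that binds ligand, measured 24.5 ± 2.06 CPM in Mark3-KO and 26 ± 2.26 CPM in WT (-0.08, edgeR adjusted p 0.619, 0.03 with library size alone and -0.06 after the GC correction). The glypican gene Gpc3, whose product binds Hedgehog ligand at the surface, measured 199 ± 6.31 CPM in Mark3-KO and 197 ± 15.3 CPM in WT (0.01, edgeR adjusted p 0.924, and -0.06 after the GC correction). Of the 3 tested, 0 passed, with a median of 0.01 before and -0.06 after the GC correction.

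Of 20 genes for cytoplasmic regulators of GLI factors, all tested, 0 passed over all genes (14 at an unadjusted p below 0.05, 4 higher and 10 lower, where 20.8% of all tested genes were higher and 24.8% lower at that p), and the median log2 fold change was -0.37. The kinase genes Gsk3b and Csnk1a1, whose products phosphorylate Gli2 and Gli3, were on the higher side. Gsk3b measured 167, 199 and 202 CPM in Mark3-KO, against 100, 92.4 and 116 CPM in WT (0.88, edgeR adjusted p 0.0506), and kept 0.65 after the GC correction (edgeR adjusted p 0.0514). Csnk1a1 measured 368, 481 and 540 CPM in Mark3-KO, against 317, 267 and 295 CPM in WT (0.66, edgeR adjusted p 0.0506), with 0.24 after the GC correction. Their relatives Csnk1d (-0.72) and Gsk3a (-0.71), and Grk2 (-0.93), which phosphorylates Smo, lay on the lower side, each with an edgeR adjusted p of 0.0506, and after the GC correction they were at -0.09, 0.55 and 0.02. The median of the list was then 0.02. Csnk1d shares 63 exon bases and Gsk3a 820 with a gene on the other strand.

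Vertebrate Hedgehog signalling runs through the primary cilium, and of 16 cilium genes 0 passed (6 higher and 6 lower at an unadjusted p below 0.05, against the same 20.8% and 24.8% of all tested genes), with a median log2 fold change of 0.13. Evc and Evc2, which form a complex with Smo at the base of the cilium, measured 18.8, 21.6 and 20.5 CPM (Evc) and 39.2, 33.5 and 32.1 CPM (Evc2) in Mark3-KO, against 49.4, 36 and 27 CPM (Evc) and 65.6, 53.5 and 44.8 CPM (Evc2) in WT. Their log2 fold changes of -0.88 and -0.64 (edgeR adjusted p 0.0506 for each) turned to 0.17 and 0.34 after the GC correction. The ciliary transport genes Dync2h1 (0.60) and Ift172 (-0.55) and the Evc complex partner Iqce (-0.69) had edgeR adjusted p values of 0.0506, 0.0506 and 0.0509. After the GC correction they were at 0.21, -0.07 and -0.15, and the median of the list was 0.11.

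Of 15 further target genes of GLI factors, 12 were tested, 0 passed (3 at an unadjusted p below 0.05, all lower, against 24.8% of all tested genes), and the median log2 fold change was -0.16 (0.17 after the GC correction). Igfbp6, a secreted binding protein of IGF-II, measured 2.74, 1.36 and 0.911 CPM in Mark3-KO, against 14.9, 8.35 and 4.64 CPM in WT (-2.47, and -1.06 after the GC correction). Bmp4, a bone morphogenetic protein, measured 20.4, 12.6 and 11.3 CPM in Mark3-KO, against 39.3, 33.6 and 25.9 CPM in WT (-1.16, and -0.81 after the GC correction). Snai1, a repressor of epithelial genes, measured 14.6, 8.58 and 7.04 CPM in Mark3-KO, against 58.5, 34.1 and 18.3 CPM in WT (-1.88, and -0.51 after the GC correction). The groups of these 3 did not overlap, and each had an edgeR adjusted p of 0.0506. Bcl2 (0.32, edgeR adjusted p 0.117) and the cyclin gene Ccnd1 (-0.24, edgeR adjusted p 0.149) also did not overlap. Their smaller differences were at 0.11 and -0.05 after the GC correction. Of the 12 tested, 4 were lower and 2 higher without overlap, against 27.5% and 25.8% of all tested genes. After the GC correction 3 of the 12 were lower (Igfbp6, Bmp4 and Snai1) and 3 others higher at an unadjusted edgeR p below 0.05. Over all tested genes 26.3% reached that p then, with 12.5% higher. Without overlap 3 were then lower and 4 higher, against 33.2% of all tested genes (16.2% higher). Ccnd1, Bmp4 and Bcl2 share exon bases with a gene on the other strand. Over all 5 lists, 0 of 56 distinct tested genes passed in edgeR (0.216% of all did). At an unadjusted edgeR p below 0.05 there were 31, against 45.7% of all tested genes. The DESeq2 Wald test called 25 (36.4% of all), and limma-voom 0 (27 of 19017 genes in all). Without WT replicate 3 edgeR called 24 of 58 tested, against 6460 of 19615 over all genes. Without Mark3-KO replicate 1 it called 21 of 58, against 6265 of 19528.

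**Figure D4:**
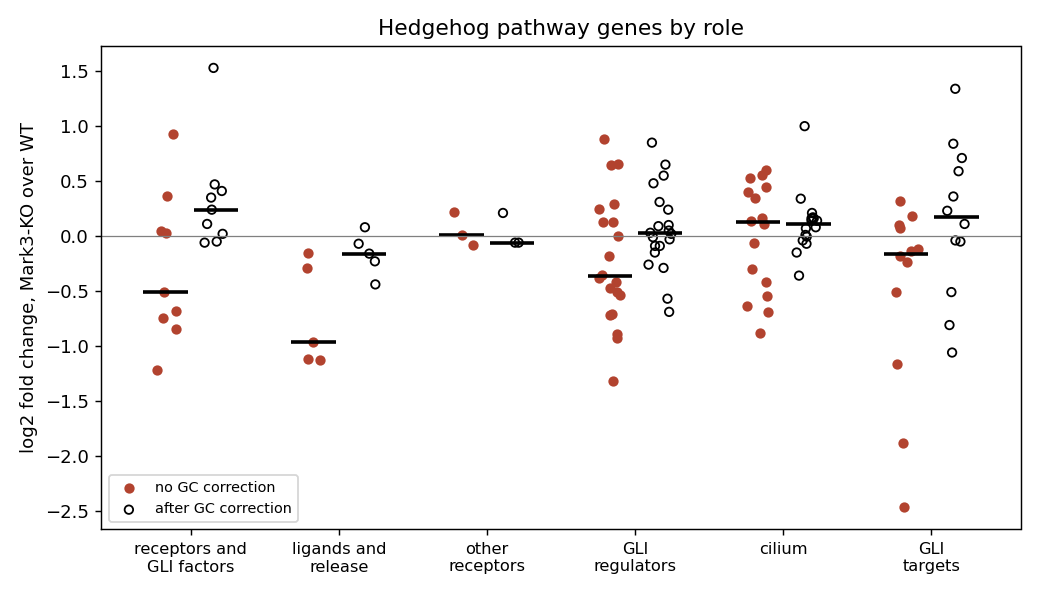
Log2 fold change of Mark3-KO over WT (vertical axis) of each tested Hedgehog pathway gene by role, before (filled) and after (open) the GC correction; horizontal bars are medians. The median of the receptors and GLI factors was -0.51 before and 0.24 after the correction, and that of the ligand release genes -0.96 and -0.16.

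RefSeq (GRCm38.p6) gave a promoter window, 250 bases before to 50 after the start, for 7 of the 9 genes (not for Gli1 or Boc). The GLI consensus GACCACCCA, searched on both strands, was in 0 of the 7 windows and in 0.253% of all 32851 windows, and its core CCACCCA in 0 of 7 and in 9.3%. The GC box GGGCGG, the letters of a common SP1 site, was in 6 of the 7 (all but Smo) and in 35.7% of all windows. The windows of the 2 target genes Ptch1 and Hhip, and of Gas1, the gene farthest above its GC bin, are shown with the GC box or its complement in capitals. A match is a description of letters, and no match says only that they are not in this window.
Ptch1: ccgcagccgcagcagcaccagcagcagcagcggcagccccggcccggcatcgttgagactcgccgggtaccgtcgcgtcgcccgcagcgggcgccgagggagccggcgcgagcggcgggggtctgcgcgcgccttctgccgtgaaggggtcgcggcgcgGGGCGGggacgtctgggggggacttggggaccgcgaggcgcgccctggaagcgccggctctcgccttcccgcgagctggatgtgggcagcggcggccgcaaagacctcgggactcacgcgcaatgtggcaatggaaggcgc
Hhip: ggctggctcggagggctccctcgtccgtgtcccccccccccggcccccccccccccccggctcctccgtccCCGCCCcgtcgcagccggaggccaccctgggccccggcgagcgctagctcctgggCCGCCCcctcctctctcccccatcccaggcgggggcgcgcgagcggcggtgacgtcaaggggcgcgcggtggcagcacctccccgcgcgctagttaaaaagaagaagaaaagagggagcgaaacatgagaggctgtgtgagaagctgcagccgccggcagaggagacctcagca
Gas1: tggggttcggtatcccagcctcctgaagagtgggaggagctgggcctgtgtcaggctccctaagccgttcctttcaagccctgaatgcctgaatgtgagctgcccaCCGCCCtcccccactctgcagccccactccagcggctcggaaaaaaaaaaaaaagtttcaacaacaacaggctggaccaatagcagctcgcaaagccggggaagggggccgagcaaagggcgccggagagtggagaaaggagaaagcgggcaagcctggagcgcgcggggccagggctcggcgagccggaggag
The Ptch1 window is chr13:63565686-63565985, the Hhip window chr8:80057959-80058258 and the Gas1 window chr13:60177486-60177785, all on the minus strand, and each is printed 5′ to 3′ along the gene. Their GC content was 76.3%, 73.7% and 62.3%, against a median of 52.7% over all windows, so the promoters of Hhip and Ptch1 were rich in GC although their longest transcripts were not.

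The cultures held RNA of osteoblast genes. Runx2, Sp7, Alpl, Col1a1, Ibsp, Spp1 and Pth1r had counts in every library, and all 8 osteoblast markers were tested, while osteocalcin (Bglap), the marker of mature cells, was at 0.146 to 0.285 CPM in Mark3-KO and 0.358 to 0.962 CPM in WT. The summed osteoblast markers, mostly Col1a1, were at 5059 to 6804 CPM in Mark3-KO and 8418 to 22632 CPM in WT. Spp1, the next most abundant, was higher without overlap, at 1423 to 1526 CPM in Mark3-KO and 1091 to 1272 CPM in WT. Alpl (65% of WT) and Pth1r (33.5%) were lower without overlap, and Runx2, Sp7 and Ibsp overlapped. Of the 8, 4 were lower and 1 higher without overlap, against 27.5% and 25.8% of all tested genes. The log2 fold change of Col1a1 was -1.74, and -0.43 after the GC correction, and that of Spp1 0.34 and -0.05. Alpl was at -0.62 and 0.33, and Pth1r at -1.58 and -0.18, in the same order. Chondrocyte markers (4 of 5 tested) summed to 351 to 583 CPM in Mark3-KO and 668 to 1731 CPM in WT, mostly Col2a1, with Matn1 near 0. All 4 had a log2 fold change below 0, as had 48.9% of all tested genes, and Acan and Sox9 overlapped. After the GC correction 2 of the 4 were below 0 and 2 above, with Col2a1 at 0.05 and Acan at 0.55. Markers of skeletal muscle (2 of 4 tested) summed to 0.732 to 1.72 CPM in Mark3-KO and 3.09 to 7.53 CPM in WT, with Ckm and Myod1 near 0. That sum was mostly the actin gene Acta1, at 0.602 to 1.4 CPM in Mark3-KO and 2.82 to 7.13 CPM in WT. Its log2 fold change was -2.43, and -1.42 after the GC correction. Myog overlapped, at 0.0325 to 0.285 CPM in Mark3-KO and 0.189 to 0.545 CPM in WT. Suture mesenchyme and fibroblast markers (4 of 4 tested) summed to 802 to 1412 CPM in Mark3-KO and 698 to 777 CPM in WT. Most of that sum was Prrx1, whose groups overlapped (478 to 1121 CPM in Mark3-KO and 402 to 503 CPM in WT), while Axin2 was lower without overlap, at 47% of WT. Twist1 and Pdgfra overlapped, with log2 fold changes of 0.19 and 0.08. After the GC correction Prrx1 was at 0.45, Axin2 at -0.40, Twist1 at 1.46 and Pdgfra at 0.02. Axin2 (lower) and Twist1 (higher) did not overlap then. Macrophage markers (28.6 to 31.1 and 28.4 to 31.8 CPM in the same order), endothelial markers (4.13 to 4.49 and 4.1 to 4.37 CPM) and adipocyte markers (0.705 to 0.773 and 0.611 to 0.817 CPM, with Adipoq and Plin1 at or near 0) overlapped between the groups as sums. Within them Adgre1 (144% of WT), Ptprc (159%) and Pecam1 (244%) were higher without overlap and Csf1r (70.2%) and Cd68 (77.1%) lower. Over all tested genes 25.8% were higher and 27.5% lower without overlap, and none of these 5 passed in edgeR. After the GC correction their log2 fold changes were 0.39, 0.12, 1.40, 0.13 and 0.05 in the same order. The groups of Ptprc and Cd68 then overlapped. The part of these cells in the Hedgehog values was not tested.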

How the data were processed

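Per the labels' protocols, Trizol RNA went into the unstranded TruSeq RNA kit v2. The deposited values were whole-number counts per Ensembl gene in 1 table. Per the submitters' processing notes, the authors used FastQC, HISAT2 2.0.5, StringTie and DESeq2 with GRCm38; annotation release, counting of shared reads and order of steps are not given in the sources used here. Symbols, positions and GC content came from GENCODE M21 (51719 IDs matched, 193 did not and held 0.0331 to 0.0834% of counts).

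Mark3-KO was compared with WT in edgeR 4.0.16 (R 4.3.3): filterByExpr, TMM, quasi-likelihood test and Benjamini-Hochberg adjustment over all genes, threshold 0.05. SEs were derived from the log2 fold change and the root of its F statistic. For the GC correction, each library's log2 ratios were fitted on the longest transcript's GC content (natural spline, 6 df) and the fit was used as an offset. Alternatives were other scalings and filters, the DESeq2 1.42.0 Wald test, limma-voom (limma 3.58.1), the replicate number as a block and left-out libraries.

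The members, lists and tests were chosen with earlier results of these data known. Named were the 9 members and Mark3 whatever their values, all ligands and other receptors (1 gene of the lists is not reported here), up to 5 genes per list with the smallest p, and for each member the 2 genes with the nearest profile. No 2 libraries were copies (chi-square per degree of freedom 68.2 to 741).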

Additional observations from a re-analysis of the deposited data

How the results depend on the processing

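The count of all genes called, 41, was within 1.5 times of that under DESeq2 size factors or no filter. It was 4510 with library size alone, 6915 with DESeq2's Wald test, 27 when limma-voom was used, 5266 with a filter of 1 CPM in 3 libraries, 72 with the GC correction, 0 with the 4 libraries nearest each other (3258 at an unadjusted p below 0.05) and 8317 at an adjusted p threshold of 0.1. Leaving out single libraries gave 0 (without WT replicate 2) to 6460 (without WT replicate 3). Of the 9 Hedgehog genes, 0 were called in the analysis as reported, 3 with library size alone, 6 with the DESeq2 Wald test, 4 with the filter of 1 CPM, 6 at a threshold of 0.1 and 0 to 5 without 1 library. For the wider lists the counts were 0, 15, 25, 21, 29 and 0 to 24 in the same order, of 56 genes tested except 55 with the filter of 1 CPM and 56 to 58 without 1 library. The cause of these shifts was not tested.

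With the replicate number as a block, 8487 genes in all, 6 of the 9 and 31 of the wider lists were called, and with block and GC correction 1592, 2 (Smo and Gas1, both higher) and 8. Whether the numbers pair the libraries cannot be told. Deviations of same-numbered libraries from their group means correlated at 0.33, -0.03 and 0.29, and those of other pairs across the groups at -0.35 to 0.09. Mark3-KO replicate 2 correlated best with WT replicate 3 (0.09).

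The sign turned with the GC correction for Smo (0.41), Gli2 (0.24), Sufu (0.35), Boc (0.11), Ptch1 (-0.06), Scube2 (0.08), Gpc3 (-0.06), Grk2 (0.02), Gsk3a (0.55), Evc (0.17) and Evc2 (0.34), and with block and correction to 0.42, 0.24, 0.34, 0.11, -0.06, 0.10, -0.06, 0.02, 0.58, 0.14 and 0.34. Values near 0 also turned: Ptch1 when replicate 2 of WT (-0.004) or of Mark3-KO (-0.02) was left out (0.06 at the highest without 1 library), Gli3 with the 4 nearest libraries (-0.01), Lrp2 with library size alone (0.03), Scube2 (-0.35 to 0.07 without 1 library, turning when WT replicate 2 was left out), and Gpc3 (-0.05 to 0.06 without 1 library, turning for WT replicate 1 and, at -0.01 and -0.0005, for Mark3-KO replicates 1 and 3, and -0.05 with the 4 nearest libraries). Gli1, Hhip and Gas1 kept their sign under all 16 alternatives. The Gli1 share kept its sign, from -1.95 to -1.16 points without 1 library and -0.0994 with the GC correction. Gli1 and Hhip rest on few counts, which limits the precision of both.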

Other observations

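Gas1 is a gene of 1 exon. Among tested protein-coding genes with at least 55% GC, chosen for a look after the values of Gas1 were seen, the 163 whose longest transcript has 1 exon had a median log2 fold change of -0.57, and 28 of them (17.2%) were above 0. The 2967 with 2 or more exons had a median of -1.07, and 72 of them (2.43%) were above 0. After the GC correction the medians were 0.51 and -0.03, and edgeR called 1 and 23 genes. These are values over genes, not replicates, and no test was made.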
